A study of Mus musculus with 12 samples.

Results

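The data described here are the transcript levels of 9 genes that act in the movement and tissue retention of antibody-secreting cells (ASCs): the chemokine receptors Ccr9, Ccr10, Cxcr3 and Cxcr4, the integrin subunits Itgb7 and Itga4, the sphingosine-1-phosphate receptor S1pr1, the transcription factor Klf2 and the hyaluronan receptor Cd44. They are 9 of the 32285 genes in the count matrices, taken by symbol, and all 9 passed the filter on low counts in every comparison. Levels were read in barcodes with at least 1000 unique molecular identifiers (UMIs) outside genes whose symbols start with Igh, Igk or Igl, and with at least 50% of the light-chain V gene UMIs in 1 V gene. These conditions left 8715 of the 39949 barcodes in the filtered matrices. Each barcode was assigned to IgM, IgA or IgG by the heavy-chain constant gene with the most UMIs, which gave 7093 IgM, 491 IgA and 1131 IgG barcodes.

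The cells came from 3 organs (thymus, spleen and bone marrow) of mice 3 months old that carry the Prdm1-eYFP reporter on a C57BL/6 background, a strain from the Jackson Laboratory. Every group carried the reporter and no group was treated, and the labels set the groups apart by organ and sex. ASCs were sorted as CD138HI, IgD-, CD90.2- and Prdm1-eYFP+ cells that were B220+ or B220-. Each sort pooled 3 mice of 1 sex, and each organ and sex made 1 droplet-based 5' gene expression library, with 2 libraries per organ, 3 per sex and 6 in all, beside 6 libraries of V(D)J contigs. A replicate is therefore a library of pooled mice, with 1 for each organ and sex. Between organs or sexes the p-values measure the spread left after additive terms for organ and sex. Between classes they measure how far the class differences vary from library to library. Sex cannot be told apart from the pool of mice, the sort or the droplet well.

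ASCs leave the tissue where they formed and lodge where matching chemokines and adhesion ligands are displayed. CCR9 binds CCL25, which is made by the small intestine and the thymus, CCR10 binds CCL27 and CCL28 of epithelia, CXCR3 binds the interferon-induced chemokines CXCL9 and CXCL10, and CXCR4 binds CXCL12 of the bone marrow stroma. The integrin subunit encoded by Itga4 pairs with the Itgb7 product to bind MAdCAM-1 on gut vessels or with the Itgb1 product to bind VCAM-1. KLF2 is a zinc-finger factor that recognises CACCC-type motifs, is known in lymphocytes as an activator of S1pr1, and is itself switched on through MEF2 factors in endothelium. S1PR1 guides lymphocytes out of tissues into blood.

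The 250 bases before the RefSeq start of Ccr9, Itgb7 and Klf2 (GRCm38.p6) are shown because these genes rose together in IgA barcodes and because KLF-type letters occur in all of them. Capitals mark CCACCC on either strand, a KLF-type motif, and the MEF2-type letters CTA and TAG separated by any 4 bases, a pattern that reads the same on both strands. The sequences run 5' to 3' on the strand of the gene.
Ccr9, chr9:123766961-123767210, plus strand: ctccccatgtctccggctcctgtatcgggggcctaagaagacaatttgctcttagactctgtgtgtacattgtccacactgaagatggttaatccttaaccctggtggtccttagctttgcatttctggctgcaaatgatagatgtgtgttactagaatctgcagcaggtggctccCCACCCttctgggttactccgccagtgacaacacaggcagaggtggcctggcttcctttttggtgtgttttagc
Itgb7, chr15:102231936-102232185, minus strand: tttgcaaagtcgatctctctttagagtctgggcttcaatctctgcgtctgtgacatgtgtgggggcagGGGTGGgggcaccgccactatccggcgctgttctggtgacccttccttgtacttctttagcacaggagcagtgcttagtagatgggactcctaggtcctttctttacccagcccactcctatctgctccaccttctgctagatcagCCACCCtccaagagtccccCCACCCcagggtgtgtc
Klf2, chr8:72318812-72319061, plus strand: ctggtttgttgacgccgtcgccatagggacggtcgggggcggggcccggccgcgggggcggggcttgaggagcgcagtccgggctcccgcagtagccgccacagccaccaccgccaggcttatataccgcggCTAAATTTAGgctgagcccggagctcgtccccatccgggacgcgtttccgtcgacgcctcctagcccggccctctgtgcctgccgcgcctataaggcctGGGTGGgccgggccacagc

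Counted back from the start, CCACCC or its complement begins at position -74 before Ccr9, at -182, -36 and -17 before Itgb7 and at -19 before Klf2, and the MEF2-type letters begin at -118 before Klf2. Itga4 also held CCACCC, at -45, and Cxcr3, Cxcr4 and Cd44 held neither motif. Ccr10 and S1pr1 had no entry in the promoter table, which matched 7 of the 9 genes. CCACCC was present in 9223 of 32851 such windows (28.1%) and the MEF2-type letters in 1052 (3.20%). CCACCC is thus common, and both motifs are described here without any reading of binding. In the GENCODE annotation of GRCm38 the genes span chr9:123678439-123784330 (Ccr9), chr11:101172997-101175443 (Ccr10), chrX:101731535-101734269 (Cxcr3), chr1:128588199-128592293 (Cxcr4), chr15:102215995-102231944 (Itgb7), chr2:79255426-79333123 (Itga4), chr3:115710433-115715072 (S1pr1), chr8:72319033-72321656 (Klf2) and chr2:102811141-102901665 (Cd44). The Ccr9 window lies inside the span of the gene, before the shorter of its annotated transcripts. The Klf2 and Itgb7 windows also reach into the spans of their genes, and the Klf2 match at -19 lies inside the GENCODE span.

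The libraries held 107 (female thymus) to 3567 (female spleen) of the chosen barcodes, with 264621 to 21287170 UMIs outside immunoglobulin genes and a median of 2035 to 4352 of these per barcode. The 2 thymus libraries were the smallest, and the female thymus held 18 IgA and 17 IgG barcodes, too few for a class sum of at least 20. All 8 ASC markers were detected in each library, with Xbp1 at 3074 to 3707 and Prdm1 at 840 to 1068 counts per 1000000 UMIs outside immunoglobulin genes (CPM), the scale of all levels here. The B cell list, of 8 genes, summed to 150 to 230 CPM, and the T cell list, of 12 genes, to 79.4 CPM in the female thymus, 32.0 CPM in the male thymus and 9.21 to 14.1 CPM elsewhere. Any 2 libraries shared 0 to 11 chosen barcodes, and 79 barcodes (0.907%) occurred in more than 1 library. The sex of each gene expression library matched its transcripts, with Xist at 672 to 1629 CPM in the libraries labelled female and 0.646 to 1.68 CPM in those labelled male. The V(D)J libraries did not match by label: the female bone marrow library shared 38 barcodes with the V(D)J library labelled female and 1046 with the one labelled male, and the other organs showed the same exchange. V(D)J contigs were therefore joined by shared barcodes, and the constant gene of the heavy contig gave the same class in 4756 of 4856 barcodes (97.9%).

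Most of the 9 genes differed between IgA and IgM barcodes. Between IgA and IgM barcodes of the same libraries, 7 of the 9 genes changed, 5 higher and 2 lower in IgA, against 7.98% of the 9366 genes tested (3.74% higher and 4.24% lower; edgeR, adjusted p under 0.05). The median log2 fold change was 0.54 over the 9 genes and -0.01 over all genes tested. Ccr9, Ccr10, Itgb7 and Klf2 made up the largest of these differences, and Itga4 moved less. Of the 7, Cxcr3 lost the call in 8 of 22 alternatives and reversed in 1, Itga4 lost it in 4 and Cxcr4 in 1. Between IgA and IgG barcodes 6 of the 9 changed, Ccr9, Ccr10, Itgb7 and Klf2 higher and Cxcr3 and Cxcr4 lower in IgA, against 10% of genes tested (4.41% higher and 5.62% lower). Of these, Cxcr4 lost the call after thinning to 1000 UMIs (log2 fold change -1.55, adjusted p = 0.12) and Klf2 with library not in the model (1.94, adjusted p = 0.106).

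**Figure D1:**
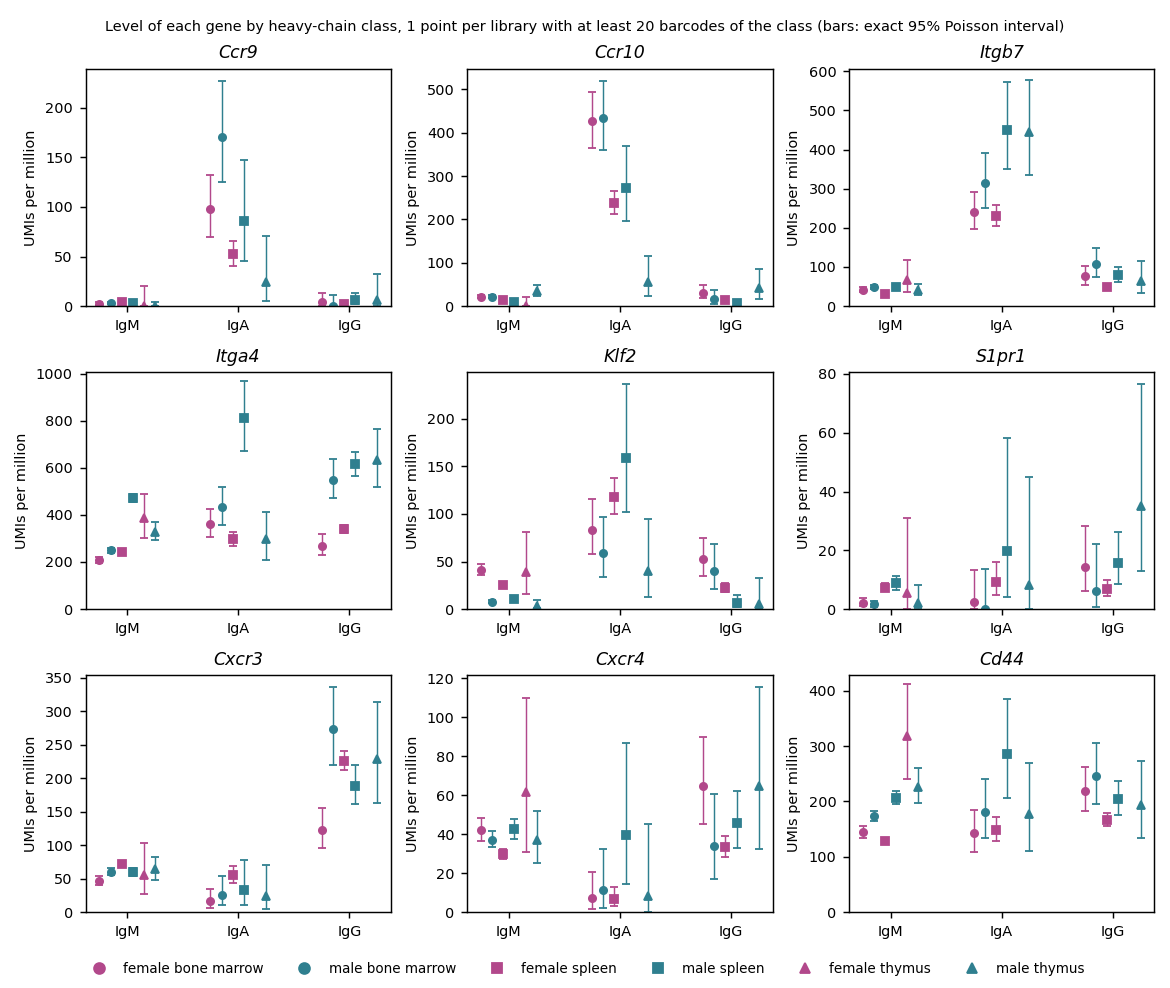
Levels of the 9 genes (UMIs per 1000000, vertical axis) in IgM, IgA and IgG barcodes, 1 point per library with at least 20 barcodes of the class, with color for sex, shape for organ and exact 95% Poisson bars for counting error. The IgA points of Ccr9 (24.2 to 171 CPM), Ccr10 (56.5 to 434 CPM) and Itgb7 (231 to 451 CPM) lie above all IgM points, and the IgG points of Cxcr3 (122 to 274 CPM) lie above those of both other classes.

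Ccr9, the receptor for the intestinal and thymic chemokine CCL25, stood in IgA barcodes at 97.5 CPM in the female bone marrow, 171 in the male bone marrow, 52.2 in the female spleen, 86.2 in the male spleen and 24.2 in the male thymus, with a mean of 86.2 ± 55.3 CPM (SD, n = 5 libraries). In IgM barcodes it ranged from 0 to 3.78 CPM with a median of 2.65 over 6 libraries, and in IgG barcodes from 0 to 5.87 CPM with a median of 3.60 over 5. The lowest IgA library was thus above every IgM and IgG library. The log2 fold change of IgA over IgM was 4.78 (SE 0.29, adjusted p = 8.54e-14), and that of IgA over IgG was 4.97 (SE 0.41, adjusted p = 1.51e-10). The male thymus value rests on 3 UMIs in 1 barcode.

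Ccr10, the receptor for the epithelial chemokines CCL27 and CCL28, was at 426 CPM in IgA barcodes of the female bone marrow, 434 in the male bone marrow, 237 in the female spleen, 272 in the male spleen and 56.5 in the male thymus. IgM barcodes held 0 to 34.6 CPM (median 17.3) and IgG barcodes 6.72 to 41.1 CPM (median 15.4). IgA did not overlap with IgM or IgG, which overlapped with each other, although the male thymus, lowest for IgA, was highest for both IgM and IgG. The fold change of IgA over IgM was 4.15 on the log2 scale (SE 0.19, adjusted p = 4.94e-17).

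Itgb7, the beta subunit of the gut-homing integrin, was also highest in IgA, with a smaller difference and a higher level in IgM. It stood in IgA barcodes at 240, 315, 231, 451 and 444 CPM in the female and male bone marrow, the female and male spleen and the male thymus, and at 31.8 to 67.0 CPM in IgM barcodes (median 45.1). The male thymus value came largely from 1 barcode, which held 43 of its 55 UMIs, and without that barcode the level was 99.2 CPM, still above every IgM library. IgG barcodes lay between, at 49.1 to 108 CPM, overlapping IgM and below IgA, except that the male bone marrow reached past the male thymus value without that barcode. The log2 fold change was 2.87 for IgA over IgM (SE 0.11, adjusted p = 1.18e-18), 2.12 for IgA over IgG (SE 0.13, adjusted p = 2.17e-13) and 0.75 for IgG over IgM (SE 0.12, adjusted p = 4.9e-05).

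Itga4, the alpha subunit that pairs with the Itgb7 or the Itgb1 product, was detected widely and differed less. Its level was 297 to 809 CPM in IgA, 270 to 634 CPM in IgG and 208 to 470 CPM in IgM barcodes, and the 3 ranges overlapped. Within libraries it was higher in IgG than in IgM in 6 of 6 and higher in IgA than in IgM in 5 of 6. The log2 fold changes over IgM were 0.63 for IgG (SE 0.13, adjusted p = 0.000606) and 0.54 for IgA (SE 0.13, adjusted p = 0.00864). The IgA difference fell to 0.49 with an adjusted p of 0.0516 when the male bone marrow was left out, and both differences lost the call with at least 10% ribosomal UMIs, a purer constant gene or no library term.

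**Figure D2:**
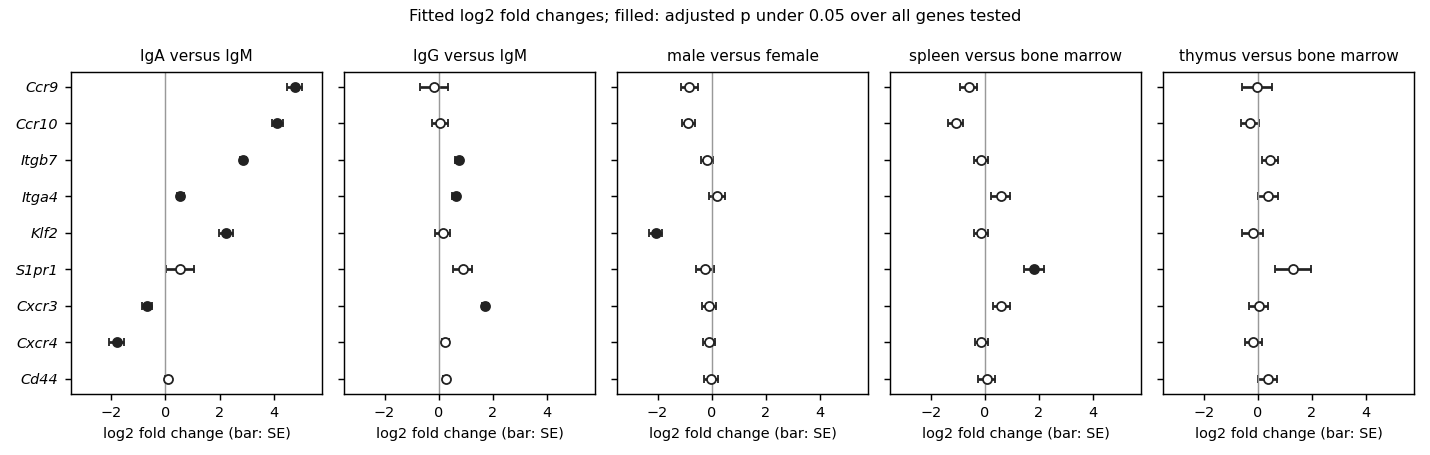
Log2 fold changes of the 9 genes (horizontal axis, bars: SE) in 5 of the comparisons, 1 panel each, with values called at an adjusted p under 0.05 filled. The panel of IgA over IgM holds values up to 4.78 for Ccr9, and the panels of organs hold 1 filled point, S1pr1 in spleen over bone marrow at 1.81.

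At the level of barcodes, 105 of 491 IgA barcodes (21.4%) held a Ccr9 UMI, 241 (49.1%) a Ccr10 UMI and 235 (47.9%) an Itgb7 UMI. The shares in IgM barcodes were 1.37%, 6.44% and 15.0%, and in IgG barcodes 1.15%, 6.28% and 20.1%, at a median of 3113 UMIs outside immunoglobulin genes in IgA, 3580 in IgM and 3882 in IgG. After thinning each barcode to 1000 UMIs the IgA shares were 9.37%, 18.9% and 26.1%, against 0.338%, 1.57% and 4.86% in IgM. Over all libraries IgA barcodes held these transcripts most often before and after thinning. The thinned male thymus differed for Ccr10, with 1 of 26 IgA (3.85%) and 2 of 35 IgG barcodes (5.71%). Macrophage-type barcodes, with at least 10 UMIs of C1qa, C1qb and C1qc, should lack these receptors. Of 34 such barcodes, with a median of 1506 UMIs, 0 held a Ccr9 UMI, 1 held Ccr10 and 1 held Itgb7. A count of 0 allows a share of barcodes with a UMI of up to 8.82% (3 counts of the total), at a lower depth than in the IgA barcodes. IgA UMIs exceeded the number estimated from free RNA by at least 31.1 times for Ccr9, 43.6 times for Ccr10 and 55.8 times for Itgb7 in every library, while for Ccr9 in IgM barcodes the ratio was 0 to 5.21.

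Read in the other direction, 105 of the 215 barcodes with a Ccr9 UMI were IgA (48.8%, exact binomial 95% interval 42.0 to 55.7%), although IgA made up 5.63% of all chosen barcodes. Of the 769 barcodes with Ccr10 241 were IgA (31.3%), and of the 1528 with Itgb7 235 were IgA (15.4%). The Ccr9 share was above the overall IgA share of the library in all 6, from 31.2% against 1.95% in the male spleen to 73.7% against 8.72% in the female bone marrow among libraries with over 5 such barcodes. In the female thymus all 5 Ccr9 barcodes were IgA, and they carried 2 distinct heavy chains.

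**Figure D3:**
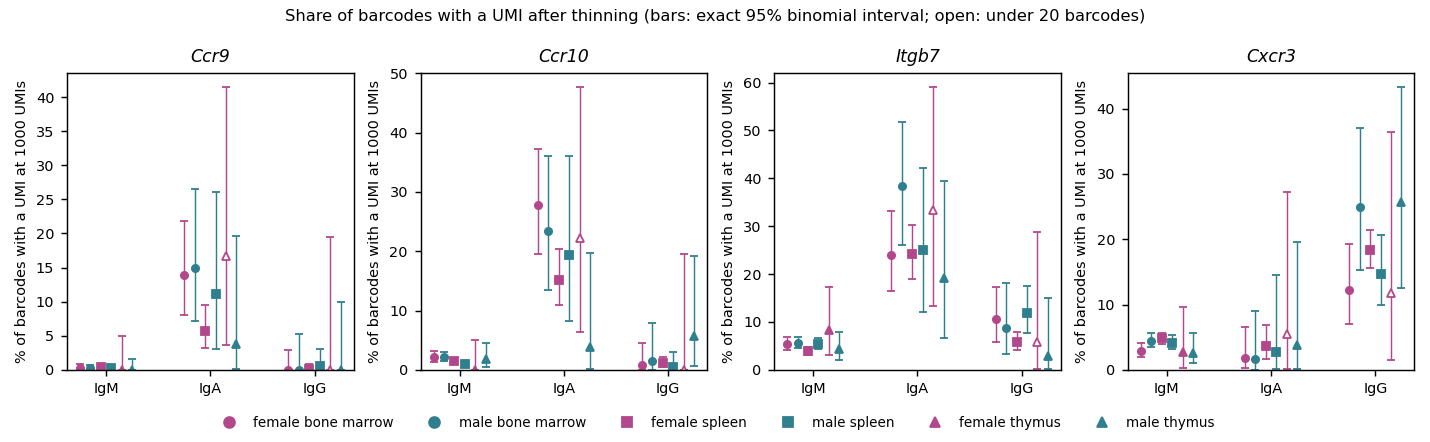
Share of barcodes with a UMI of Ccr9, Ccr10, Itgb7 or Cxcr3 after thinning to 1000 UMIs (percent, vertical axis) in IgM, IgA and IgG barcodes, 1 point per library with an exact 95% binomial bar, open where fewer than 20 barcodes were summed. Over all libraries IgA stands above IgM for Ccr9 (9.37% against 0.338%), Ccr10 (18.9% against 1.57%) and Itgb7 (26.1% against 4.86%), and IgG above IgM for Cxcr3 (17.6% against 4.23%).

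Many IgA barcodes held more than 1 of these transcripts. Among the 491, 61 held Ccr9 and Ccr10, 61 Ccr9 and Itgb7, 138 Ccr10 and Itgb7, 35 all 3, and 356 (72.5%) at least 1. At least 1 was found in 78.7% and 85.0% of IgA barcodes of the female and male bone marrow, 72.4% and 66.7% in the spleen and 61.1% and 34.6% in the thymus. These shares are not thinned, and the 18 IgA barcodes of the female thymus had the lowest median depth of the 6 libraries, at 1960 UMIs. After thinning, its shares of 16.7% for Ccr9, 22.2% for Ccr10 and 33.3% for Itgb7 were above those of both spleen libraries (5.76% and 11.1%, 15.2% and 19.4%, 24.3% and 25%), with wide exact intervals (3.58% to 41.4% for Ccr9). In IgM barcodes 1508 of 7093 (21.3%) and in IgG barcodes 288 of 1131 (25.5%) held at least 1.

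Co-detection was compared with the product of the single shares in each library, over all classes, after thinning to 1000 UMIs. Genes that are each higher in IgA can exceed that product through the mix of classes alone. An excess over all classes therefore does not show a link between 2 genes within a class. Barcodes with both Ccr9 and Itgb7 exceeded that product by 0.444 ± 0.542 percentage points (SD, n = 6 libraries, above 0 in 6 of 6; exact sign-flip permutation test, two-sided, p = 0.03125, adjusted p = 0.0781 over 5 pairs), and Ccr10 with Itgb7 by 0.457 ± 0.493 points with the same exact p. The smallest p that 6 libraries allow is 0.03125, so neither pair passed after adjustment. Both means leaned on the female thymus, at 1.53 and 1.415 points, each from 2 joint barcodes of 107. Without that library they were 0.227 and 0.266 points, above 0 in 5 of 5. Without thinning, Ccr9 with Ccr10, Ccr9 with Itgb7, Ccr10 with Itgb7 and Itga4 with Itgb7 exceeded the product by 1.11, 0.826, 1.79 and 1.24 points in 6 of 6 libraries each, with an exact adjusted p of 0.0391. That comparison holds neither depth nor class equal, and within IgA barcodes, also without thinning, no pair passed (lowest exact adjusted p = 0.156). Klf2 with S1pr1, its known target, differed from the product by 0.0036 ± 0.0333 points (SD, n = 6 libraries), but S1pr1 was in 1 to 26 thinned barcodes per library, too few for this test to show an excess. Both spleen libraries, with 2 and 1 joint barcodes, were above the product, and the other 4 held 0. Without thinning, Klf2 with S1pr1 exceeded the product by 0.275 ± 0.2155 points (SD, above 0 in 5 of 6 libraries; exact adjusted p = 0.0625). With at least 2000 UMIs, thinned to 2000, the excess was 0.057 points (4 of 6; exact adjusted p = 0.125). Neither passed, and the unthinned run does not hold depth equal. Within IgA barcodes alone, thinned, the excess was 2.44 ± 1.97 points for Ccr9 with Itgb7 (6 of 6 libraries; exact adjusted p = 0.156) and 0.496 ± 3.47 points for Ccr9 with Ccr10 (1 of 6; exact adjusted p = 1.0).

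Barcodes of every class share clones, and a clone can weigh on these levels. Of the barcodes with a single heavy contig, 42.0% of IgA, 59.2% of IgM and 55.5% of IgG shared their chain with another of the same library and class. In the male spleen 1 IgM chain held 380 of 1264 barcodes. The 388 IgA barcodes with a single heavy contig carried 273 heavy chains, counted within each library, the largest with 31 barcodes in the female spleen. A chain found in more than 1 library counts once in each. The 85 of them with a Ccr9 UMI carried 73 chains, the 199 with Ccr10 156 and the 178 with Itgb7 150, so detection was spread over many chains. With 1 barcode kept per heavy chain, class and library, the log2 fold changes of IgA over IgM were 4.61 for Ccr9, 4.18 for Ccr10 and 3.05 for Itgb7, all called. With each gene counted at most once per barcode they were 4.10, 3.02 and 1.86, all called.

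Cxcr3, the receptor for interferon-induced chemokines, was the member with the largest difference between IgG and IgM. Between IgG and IgM barcodes 3 of the 9 genes changed, all higher in IgG (Cxcr3, Itgb7 and Itga4), against 11.5% of genes tested (5.23% higher and 6.3% lower). Cxcr3 stood in IgG barcodes at 122 CPM in the female bone marrow, 274 in the male bone marrow, 226 in the female spleen, 188 in the male spleen and 229 in the male thymus. IgM barcodes held 47.1 to 71.8 CPM (median 60.1) and IgA barcodes 16.7 to 55.3 CPM (median 26.0). IgG lay above both other classes in all 5 libraries with a class sum, with no overlap. IgG exceeded IgM by 1.70 on the log2 scale (SE 0.11, adjusted p = 8.5e-13), and the change of IgA over IgG was -2.40 (SE 0.18, adjusted p = 9.04e-12).

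Cxcr3 was found in each IgG subclass of the female spleen. In the female spleen, where counts were largest, its level was 227 CPM in Ighg1, 214 in Ighg2b, 237 in Ighg2c and 236 in Ighg3 barcodes, with overlapping Poisson intervals that cover counting error only. In the male bone marrow it was 143 CPM in Ighg2b, 286 in Ighg2c and 338 in Ighg3 barcodes, from 12, 25 and 52 UMIs. All IgG barcodes there held 89, and no value is given for Ighg1. The levels in IgM of the same 2 libraries were 71.8 and 60.6 CPM, below each subclass value given.

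Over all classes, Cxcr3 moved with the cell cycle list, of 12 genes. It was higher in barcodes with at least 2 UMIs of that list in 6 of 6 libraries (59.4 to 168 CPM, median 119, against 36.6 to 81.7 CPM, median 53.8), and the list summed to 917 to 2195 CPM in IgG and 618 to 910 CPM in IgM sums. With those barcodes left out, Cxcr3 was higher in IgG than in IgM by 2.35 on the log2 scale (SE 0.13, adjusted p = 2.55e-20). The lower Cxcr3 of IgA against IgM, at -0.70 on the log2 scale (SE 0.18, adjusted p = 0.0139), did not hold: without the cycling barcodes it was 0.02 (adjusted p = 0.973), and 8 further alternatives of 22 lost the call. Cxcr4 and Cd44 were also higher in cycling barcodes in 6 of 6 libraries, and Ccr9 and Itgb7 were lower in 6 of 6, over all classes. Within IgA, with 1 to 73 cycling barcodes per library, the order was not the same in all libraries, with Ccr9 higher in the male spleen (110 against 76.1 CPM) and Itgb7 higher in the male bone marrow (332 against 311 CPM). Cxcr3 in cycling IgA barcodes was lower in the female bone marrow (13.0 against 17.5 CPM), the female spleen (51.0 against 58.3 CPM) and both thymus libraries. It was higher in the male bone marrow (34.9 against 23.55 CPM) and male spleen (43.9 against 28.5 CPM). Cxcr4 in IgA, at few UMIs, was lower in cycling barcodes of both bone marrow libraries and the female spleen, and higher in the male spleen and male thymus.

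Cxcr4, the receptor for the bone marrow chemokine CXCL12, was lower in IgA. IgA barcodes held 7.14, 11.1, 6.81, 39.8 and 8.07 CPM in the female and male bone marrow, the female and male spleen and the male thymus, from 3, 3, 9, 6 and 1 UMIs. IgM barcodes held 29.8 to 61.4 CPM (median 39.7), and IgA was below IgM within each of 6 libraries. The male spleen alone reached into the IgM range. The IgA over IgM difference was -1.81 on the log2 scale (SE 0.28, adjusted p = 3.33e-05), and it was -1.53 (SE 0.55, adjusted p = 0.0756) after thinning to 1000 UMIs, the 1 of 22 alternatives in which the call was lost. The IgA counts were 1.17 and 0.862 times those estimated from free RNA in the female bone marrow and the female spleen. IgG and IgM did not differ detectably (log2 fold change 0.25, adjusted p = 0.289). Cd44, at 143 to 285 CPM in IgA, 167 to 246 CPM in IgG and 129 to 318 CPM in IgM barcodes, passed no test between classes, and its IgA over IgM difference was 0.09 (SE 0.12, adjusted p = 0.77).

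Klf2 differed by class and by sex, and the sex difference was known from earlier results of these data. In IgA barcodes it stood at 83.3 CPM in the female bone marrow, 59.4 in the male bone marrow, 117 in the female spleen, 159 in the male spleen and 40.3 in the male thymus. In IgM barcodes of the same libraries it stood at 41.0, 7.70, 25.1, 10.5 and 3.35 CPM, and at 39.1 CPM in the female thymus. The 18 IgA barcodes of the female thymus gave 229 CPM, from 10 UMIs in 4 barcodes of 1 heavy chain. IgA was above IgM in every library, in the male thymus through 1 barcode that held all 5 Klf2 UMIs of the IgA sum. IgA exceeded IgM by 2.24 on the log2 scale (SE 0.25, adjusted p = 1.29e-07) and IgG by 2.09 (SE 0.30, adjusted p = 8.66e-06). Single barcodes weighed on the small sums of the males. Without the barcode richest in Klf2 the IgA level fell in each library. It was then 37.9 CPM in the male bone marrow, 42.1 in the male spleen and 0 in the male thymus. In the females it was 73.8 in the bone marrow and 110 in the spleen. That barcode held 6 of 16, 18 of 24 and 5 of 5 UMIs in these male sums and 5 of 35 and 11 of 155 in the female ones. Leaving it out lowers small sums most, so these values do not compare the sexes. Counting Klf2 at most once per barcode gave 1.61 for IgA over IgM, and 1 barcode per heavy chain gave 1.94, both called.

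In the comparison of male with female libraries 1 of the 9 genes changed, against 0.427% of the 11239 genes tested (0.267% lower and 0.16% higher in males). That gene was Klf2, at 45.2, 30.3 and 64.2 CPM in the female and 10.3, 12.9 and 7.57 CPM in the male bone marrow, spleen and thymus. The lowest female library was above the highest male library. The log2 fold change was -2.07 (SE 0.25, adjusted p = 6.43e-06), and it was called in 21 of 21 alternatives, from -2.55 to -1.90. Restricted to IgM barcodes it was -2.20 (SE 0.27, adjusted p = 8.05e-07).

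**Figure D4:**
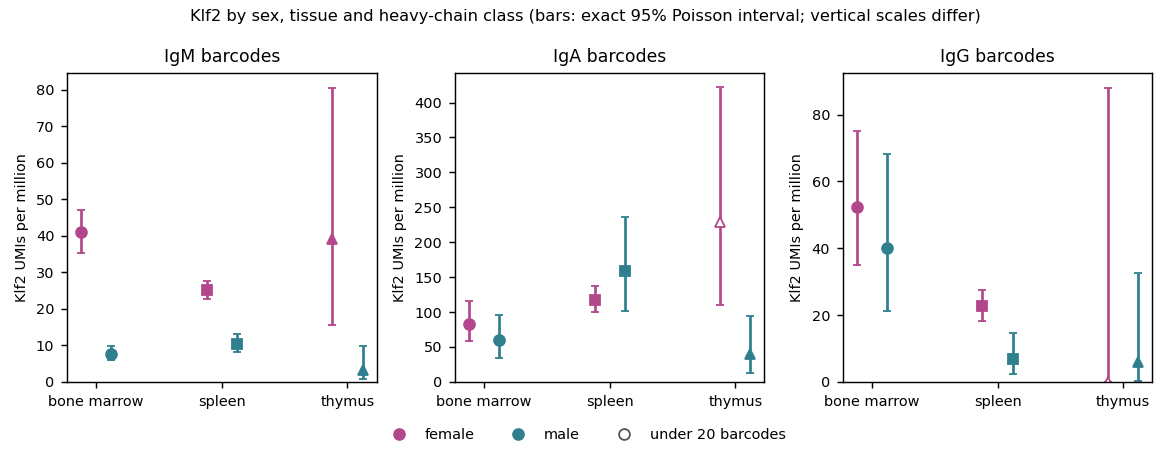
Klf2 levels (UMIs per 1000000, vertical axis, with a different scale in each panel) by organ and sex, 1 panel per class, with exact 95% Poisson bars and open points for sums of fewer than 20 barcodes. The female IgM points (25.1 to 41.0 CPM) lie above the male ones (3.35 to 10.5 CPM), and the male IgA points (40.3 to 159 CPM), each with 37.5% or more of its UMIs in 1 barcode, lie on both sides of the filled female ones (83.3 and 117 CPM).

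The sex difference was smaller in IgA than in IgM barcodes by 1.55 on the log2 scale (SE 0.46, unadjusted p = 0.00177), but the adjusted p of this interaction was 0.919, and edgeR called 0 of 9366 genes for it, with 453 at an unadjusted p under 0.05. Over its alternatives the adjusted p was 0.075 to 1.0, so a difference between classes in the sex effect was not shown. In the female thymus Klf2 in IgM rested on 7 UMIs, of which 1 barcode held 5, and the level was 11.4 CPM without that barcode.

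Genes of the immediate early response, which also rise when cells are handled during dissociation, moved with Klf2 between the sexes. They were chosen after their values were seen. Fos fell by 1.79 on the log2 scale in males (adjusted p = 0.00214), Fosb by 2.22 (adjusted p = 0.000628) and Dusp1 by 1.83 (adjusted p = 0.000114), while Jun, Junb, Egr1, Ier2, Klf4 and Klf6 did not pass the test. Fos was at 464, 312 and 106 CPM in the female and 95.9, 124 and 49.6 CPM in the male bone marrow, spleen and thymus. The Fosb levels of the thymus were 18.9 CPM in the female and 20.2 CPM in the male library, from 5 and 24 UMIs. Klf2 there was 64.2 and 7.57 CPM, from 17 and 9 UMIs, with 5 of each in 1 barcode. Dusp1 (18.9 and 12.6 CPM), Jun (151 and 135), Egr1 (11.3 and 4.21), Ier2 (41.6 and 41.2) and Klf4 (7.56 and 0.841) were higher in the female thymus. Junb (64.2 and 108 CPM) and Klf6 (37.8 and 59.7) were lower there. The part of this response in the Klf2 difference was not tested.

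The ribosomal share of UMIs also differed, at a median of 10.2% per barcode in the female spleen and 1.93 to 3.86% in the other libraries. With barcodes of at least 10% ribosomal UMIs alone, Klf2 in males fell by 2.55 on the log2 scale. Ccr10 (log2 fold change -0.86, adjusted p = 0.168) and Ccr9 (-0.83, adjusted p = 0.358) were the next members by size between the sexes and did not pass. IgA made up 8.72, 6.81 and 16.8% of female and 3.60, 1.95 and 9.03% of male barcodes in bone marrow, spleen and thymus. Within IgA both genes were higher in the male bone marrow and spleen, and lower in the male thymus. The part of the IgA share in these 2 differences was not tested.

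**Figure D5:**
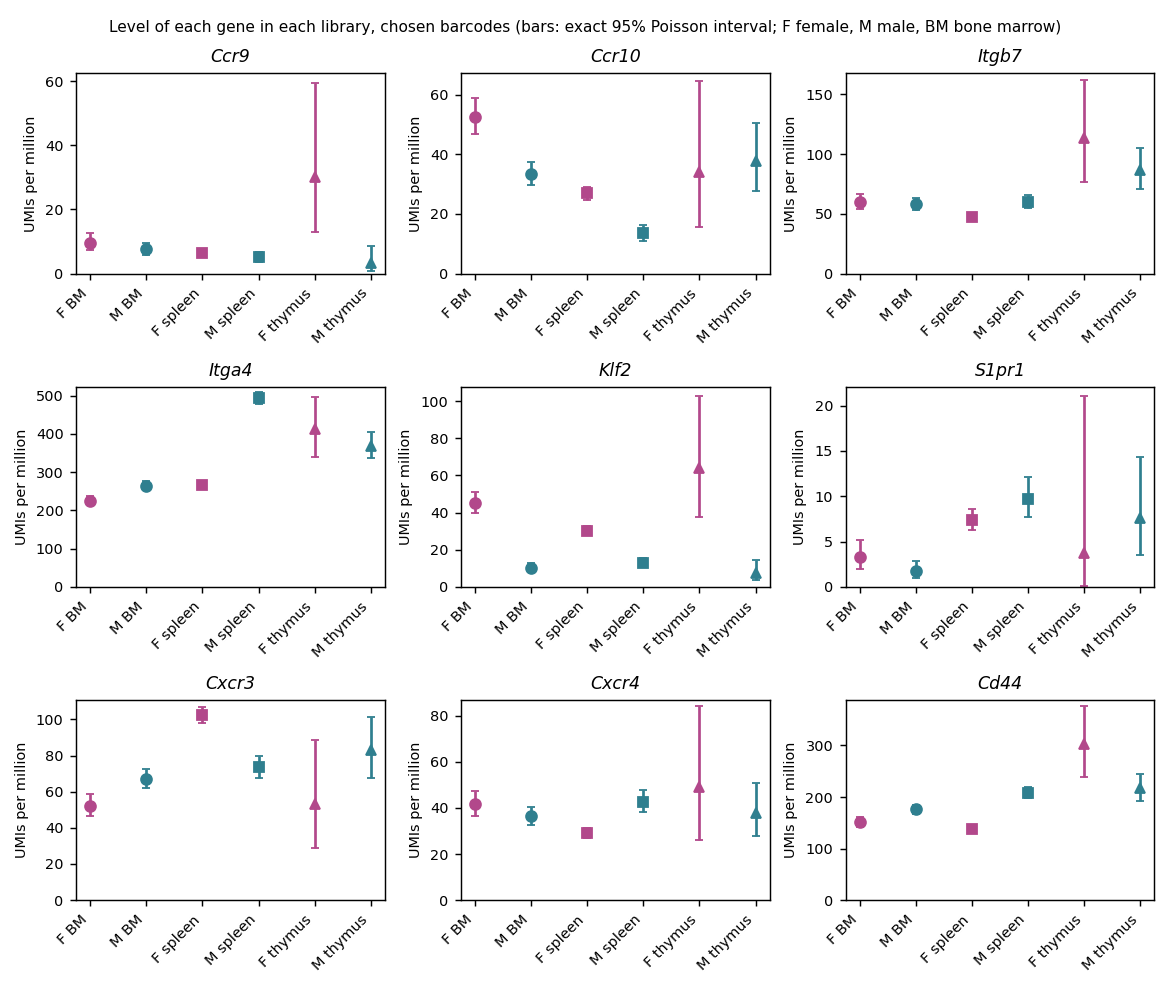
Levels of the 9 genes (UMIs per 1000000, vertical axis) in the 6 libraries over all classes, by organ and sex, with exact 95% Poisson bars for counting error. Klf2 is higher in each female library than in any male library, S1pr1 is higher in both spleen than in both bone marrow libraries, and the intervals of the female thymus (264621 UMIs) are the widest.

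Between organs, S1pr1 alone changed. Its level was 3.34 CPM in the female and 1.72 CPM in the male bone marrow, 7.33 and 9.72 CPM in the spleen and 3.78 and 7.57 CPM in the thymus, from 19, 16, 156, 77, 1 and 9 UMIs. Both spleen libraries were above both bone marrow libraries, while the female thymus held a single UMI. Free RNA moved the same way: in barcodes outside the filtered list S1pr1 stood at 8.89 and 8.32 CPM in the spleen and 2.70 and 2.86 CPM in the bone marrow. The UMIs estimated from free RNA were 35.6 of 156 and 10.8 of 77 in the female and male spleen and 2.13 of 19 and 2.60 of 16 in the bone marrow, and their part in the difference was not tested. The log2 fold change of spleen over bone marrow was 1.81 (SE 0.37, adjusted p = 0.0117), the only member among 9, against 0.436% of genes tested (0.0712% higher and 0.365% lower). The call was lost in 8 of 21 alternatives, among them DESeq2 (adjusted p = 0.676) and leaving out the female bone marrow (0.345), the male bone marrow (1.0) or the male spleen (0.17). S1pr1 passed no test between classes, with log2 fold changes over IgM of 0.53 for IgA (SE 0.53, adjusted p = 0.65) and 0.89 for IgG (SE 0.36, adjusted p = 0.115).

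Ccr10 was the member nearest to a further organ difference. It stood at 52.6 CPM in the female and 33.4 CPM in the male bone marrow, 26.9 and 13.5 CPM in the spleen and 34.0 and 37.8 CPM in the thymus. Both spleen libraries were lower than the other 4 over all classes, and 8 of the 9 Ccr10 UMIs of the female thymus came from IgA barcodes. Within IgM, Ccr10 stood at 21.9 and 21.6 CPM in the female and male bone marrow, 13.0 and 8.72 in the spleen and 0 and 34.6 in the thymus, so there the female thymus was lowest. Spleen over bone marrow was -1.07 on the log2 scale (SE 0.27, adjusted p = 0.0887), and -0.92 (adjusted p = 0.0194) with Ccr10 counted at most once per barcode.

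No member was called in the thymus. Against the bone marrow 0 of 9 were called by edgeR (0 at an unadjusted p under 0.05), with 0.765% of genes tested called (0.525% higher and 0.24% lower), and against the spleen 0 of 9 (1 at an unadjusted p under 0.05, Ccr10, with a log2 fold change of 0.80 and an adjusted p of 0.503), with 0.632% called (0.498% higher and 0.133% lower). DESeq2 called 0 of 9 in each, a count given without its share over all genes. The standard errors in the thymus comparisons reached 0.66 for S1pr1 and 0.58 for Ccr9, which limits the size of difference that could be called there.

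The levels of Itgb7 over all classes, in order, were 47.7 CPM in the female spleen, 58.1 CPM in the male bone marrow, 59.7 CPM in the male spleen, 59.8 CPM in the female bone marrow, 86.6 CPM in the male thymus and 113 CPM in the female thymus. The male thymus value fell to 50.6 CPM, inside the range of bone marrow and spleen, without the 1 barcode that held 43 of its 103 UMIs. Of the 30 Itgb7 UMIs of the female thymus, 15 came from its 18 IgA barcodes. Within IgM the level was 41.8 and 48.3 CPM in the female and male bone marrow, 31.8 and 48.5 in the spleen and 67.0 and 41.4 in the thymus, so the male thymus was then below both bone marrow libraries. Thymus over bone marrow, over all classes, was 0.45 on the log2 scale (SE 0.30, adjusted p = 0.685). Itga4 was highest in the male spleen at 493.1 CPM and lowest in the female bone marrow at 226 CPM, Cd44 ranged from 138 to 302 CPM, Cxcr3 from 52.2 to 103 CPM and Cxcr4 from 29.1 to 49.1 CPM, and none of these passed the test between organs.

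A list of 70 other trafficking genes (further chemokine and sphingosine-1-phosphate receptors, integrins, other adhesion molecules and their regulators, and KLF, FOXO and MEF2 factors) was read beside the members. Of its 68 genes in the files 40 were tested between classes and 48 between organs and sexes. None of the 48 was called between organs or sexes, where 0.427 to 0.765% of the 11239 genes tested were called. At such shares a count of 0 is not read as a result about the list. Between IgA and IgM 5 rose and 6 fell in IgA, between IgG and IgM 6 rose and 10 fell in IgG, and between IgA and IgG 8 were higher and 4 lower in IgA. The shares of all genes tested that were called in these comparisons were 7.98% (3.74% higher and 4.24% lower), 11.5% (5.23% and 6.3%) and 10% (4.41% and 5.62%). The list's median log2 fold change was 0.14, -0.05 and 0.03 in these 3 comparisons, against -0.01, 0.01 and -0.01 over all genes tested.

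Gpr15, a chemoattractant receptor of the large intestine, was called higher in IgA than in IgM at low counts (adjusted p = 3.55e-06). Its level in IgA was 14.3 CPM in the female bone marrow, 7.42 in the male bone marrow, 6.81 in the female spleen, 13.3 in the male spleen and 0 in the male thymus, and in IgM it was 0 in 5 of 6 libraries and 0.145 CPM in the male spleen. Ackr3, a scavenger receptor for CXCL12, rose with IgA by 1.39 on the log2 scale (SE 0.30, adjusted p = 0.00241) and was lower in IgG than in IgM, at -1.98 (SE 0.38, adjusted p = 0.000422). It was thus higher in IgA while Cxcr4, the signalling receptor for the same chemokine, was lower.

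Cd69, which holds S1PR1 inside the cell, rose in IgA over IgM by 0.89 (SE 0.20, adjusted p = 0.00472). In the male thymus it was lower in IgA (64.55 CPM) than in IgM (128.5 CPM), and in the other libraries with an IgA sum it was higher. Itgav, the alpha subunit of the vitronectin receptor, was lower than in IgM in both switched classes, at -1.34 in IgA (adjusted p = 0.00165) and -1.47 in IgG (adjusted p = 4.05e-06). The tetraspanin gene Cd82 was at -0.84 in IgA (adjusted p = 0.00484). Cd82 was higher in IgA (88.75 CPM) than in IgM (72.65 CPM) in the male thymus, and lower in the other libraries with an IgA sum. Of the list, the largest rise in IgG over IgM was S1pr4 at 0.59 (adjusted p = 0.0463). Next were the leukocyte integrin subunit Itgb2 at 0.52 (adjusted p = 0.000321) and the receptor kinase gene Grk2 at 0.39 (adjusted p = 0.0152). Itgb2 was at 182.1 CPM in IgG and 185.5 CPM in IgM of the male thymus, and higher in IgG in the other libraries with an IgG sum.

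Of the list, the largest rises in IgA over IgG were Gpr15, Ackr3 at 3.37 (SE 0.44, adjusted p = 2.53e-06) and Rgs1. The Rgs1 level was 48.4 CPM in IgA of the male thymus and 0 to 9.51 CPM in IgA of the other 4 libraries. The lower ones by size were Cd9 at -0.64, Itgb1 at -0.52 and Cd81 at -0.47 (adjusted p = 0.0163, 0.0278 and 0.0137). Cd9 was higher in IgA in the male spleen (86.2 against 63.9 CPM in IgG). Itgb1 (153 against 123 CPM) and Cd81 (920 against 681 CPM) were higher in IgA in the male thymus. In the other libraries with both sums each gene was lower in IgA. Itgb1 encodes the other partner of the Itga4 product. The fitted changes of Itgb7 and Itgb1 thus went in opposite directions in IgA, while in the male thymus both were higher in IgA than in IgG.

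The genes whose levels most resembled those of the members were taken by Pearson correlation of log2(CPM + 1) over the 16 library and class sums, among 7900 genes with a mean of at least 10 CPM. The sums share libraries and depth, so these are descriptions. Ccr9 was closest to Runx2 (r = 0.870), Ccr10 (0.855) and Itpr1 (0.834), and Itgb7 to St6galnac3 (0.883), Itpr1 (0.874) and Uck2 (0.862). Runx2, a transcription factor gene, was at 40.3 to 148 CPM in IgA, 0 to 7.82 CPM in IgM and 0 to 1.12 CPM in IgG sums. Runx2 also belongs to the plasmacytoid dendritic cell list, of 6 genes. With Runx2 included, the list summed to 56.5 to 163 CPM in IgA and 33.5 to 82.7 CPM in IgM barcodes. The higher IgA sum thus contains Runx2 itself and does not show more of the other genes of the list. In IgA 1 to 3 of its genes were detected per library, with Siglech, Klk1 and Ccdc162 at 0 in all 6, and the part of that list in the Runx2 level was not tested. Itpr1, which encodes a calcium release channel of the endoplasmic reticulum, was at 53.8 to 156 CPM in IgA and 13.8 to 39.1 CPM in IgM sums.

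Ccr10 was closest to Rab19 (r = 0.903), Cdc14b (0.855) and Flt3l (0.855), Klf2 to Rasgrp2 (0.836), Gimap7 (0.806) and Tuba1a (0.806), and S1pr1 to Cdc42se1 (0.820), Gsap (0.819) and Pelo (0.815). Klf2 and S1pr1 themselves had r = -0.05 over the 16 sums, and Klf2 and Itgb7 0.68. S1pr1 had 0 to 114 UMIs per sum, and 0 to 12 in the IgA sums. Its r values therefore carry much counting error, and that with Klf2 does not show that the 2 genes are unrelated. Gimap7, a GTPase gene of lymphocytes, was at 48.4 to 119 CPM in IgA and 19.2 to 72.6 CPM in IgM sums.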

How the data were processed

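Single-cell 5' RNA of sorted ASCs was measured in 6 libraries. The deposited matrices hold whole-number UMI counts per gene and barcode, made by the authors with Cell Ranger (filtered matrices 6.0.2, raw matrices 4, per the file headers and the submitters' processing notes) on mm10. Values were used as deposited, and V(D)J contigs served to check classes and count heavy chains.

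The 9 genes, the lists and the tests were chosen with earlier results of these data known. Genes starting with Igh, Igk or Igl (395) were left out of depth and tests. Counts were summed per library, or per library and class with at least 20 barcodes, and tested with edgeR 4.0.16 (filterByExpr, TMM, quasi-likelihood F-test; R 4.3.3) on sex and tissue (6 sums, residual df 2) or library and class (16 sums, residual df 8). Adjusted p is Benjamini-Hochberg over all genes tested, called under 0.05; the scripts were tested on simulated data. Library, not cell, was the replicate. The free RNA of each barcode was estimated from the light-chain V transcripts it held beside its leading V gene and from the makeup of barcodes outside the filtered list. Co-detection used an exact sign-flip test over 64 flips (numpy 2.4.6). Doublets were limited by the light-chain condition, and no doublet caller was run. Named beside the 9 genes are the 3 largest called changes per direction from the trafficking list and the 3 closest genes by correlation, of which 1 gene is not reported here; other names were chosen after their values were seen. Intervals are 95% and cover counting error only. DESeq2 1.42.0 and the other alternatives are described after the results. Promoter sequences are from RefSeq (GRCm38.p6).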

Additional observations from a re-analysis of the deposited data

Results flagged for a closer look

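In 36 groups of 4 to 10 library values, 4 had 1 library far from the others by Dixon's test at 95%, and chance alone gives about 1 in 20 groups. Ccr9 over all classes was 30.2 CPM in the female thymus and 3.36 to 9.68 CPM in the other 5 libraries. That value rests on 8 UMIs in 5 barcodes, all IgA, and IgA made up 16.8% of the chosen barcodes there.

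The other 3 were in IgA barcodes of the male spleen, a sum of 36 barcodes. Cxcr4 was 39.8 CPM there and 6.81 to 11.1 CPM in the other 4 libraries, Itga4 was 809 CPM and 297 to 434 CPM, and Cd44 was 285 CPM and 143 to 182 CPM. Itga4 was also highest in that library in IgM barcodes, at 470 CPM.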

How the results depend on the processing

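Ccr9, Ccr10 and Itgb7 in both IgA comparisons, Cxcr3 and Itgb7 in IgG over IgM, Cxcr3 in IgA over IgG and Klf2 in IgA over IgM kept direction and call in 22 of 22 alternatives, and Klf2 between the sexes in 21 of 21. Over the 18 differences of single members that were called as reported, each under its alternatives, 367 of 394 values kept the call, 26 lost it and 1 reversed: Cxcr3 in IgA over IgM, at 0.024 on the log2 scale with cycling barcodes left out. The cause was not tested for this or the values that follow. With at least 10% ribosomal UMIs the members called were 1 for thymus over spleen, 5 for spleen over bone marrow and 4 for male over female, where 143, 362 and 457 of the 9726 genes tested were called. For spleen over bone marrow, 1 was called as reported. It was 0 with DESeq2, with the top light-chain V gene at 80%, with thinned barcodes, without sex in the model and with 1 barcode per heavy chain. It was 2 with no filter on low counts, with at least 2000 UMIs, with barcodes of other cell type markers or cycling barcodes left out, and with each gene counted once per barcode. For male over female it was 2 with at least 2000 UMIs and with other cell type or cycling barcodes left out. These counts of 0 and 2 are given without the share of all genes called, and are not read as a result about the members.

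Leaving out 1 library left a single library of its organ, so counts of members called between organs are not read there. For male over female 1 to 2 members were called with each library left out, given without the share of all genes called. Over all classes, co-detection passed without thinning and with at least 2000 UMIs thinned to 2000. The pairs were Ccr9 with Ccr10, Ccr9 with Itgb7, Ccr10 with Itgb7 and Itga4 with Itgb7. They exceeded the product by 1.11, 0.826, 1.79 and 1.24 points and by 1.16, 0.741, 1.18 and 0.92 points. Both runs mix the classes, and within IgA barcodes no pair passed, thinned or not. Klf2 with S1pr1 gave -0.0107 points within IgA barcodes, which rests on the female spleen alone, since S1pr1 was in 0 thinned IgA barcodes of the other 5 libraries, and 1.35 points there without thinning (exact adjusted p = 0.25). It ranged from -0.0052 to 0.0131 points with each library left out. Over all genes the calls ranged from 66 to 1030 for IgA over IgM, 192 to 1225 for IgG over IgM, 116 to 1061 for IgA over IgG, 8 to 457 for male over female, 6 to 362 for spleen over bone marrow, 16 to 353 for thymus over bone marrow and 24 to 934 for thymus over spleen. Counting once per barcode, 1 barcode per heavy chain, classes from the V(D)J contig, IgM barcodes alone and the unthinned co-detection within a class were chosen after seeing the data. The labels give no replicate numbers. Libraries were a block in the class comparisons, and sex a term in those of organs. With library not in the model the members called were 5 for IgA over IgM, 2 for IgG over IgM and 5 for IgA over IgG. Over all genes 66, 192 and 116 were called in that setting. The 72 IgM barcodes of the female thymus, with 0 UMIs of Ccr9 and Ccr10, allow a share of barcodes with a UMI of up to 4.17% (3 counts of the total).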
